A study of Mus musculus with 57 samples.

Results

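The genes described here are the cyclins and cyclin-dependent kinases that act in the G1 phase of the cell cycle, with a pair of inhibitors of these kinases, in single cells from the kidneys of newborn mice. They were chosen by symbol: the D cyclins Ccnd1, Ccnd2 and Ccnd3, the E cyclins Ccne1 and Ccne2, the kinases Cdk4 and Cdk6, and the inhibitors Cdkn1a (p21) and Cdkn1b (p27). All 9 had values in the deposited table, out of 12087 genes. Their levels are described across macrophage-like, podocyte-like and nephron cells and against Top2a and Rrm2, whose products are used when a cell copies its DNA and divides.

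The 57 cells were sorted by fluorescence from 1 pool of 2 kidneys taken at postnatal day 4 from Tg(Crym-EGFP)82Gsat mice of mixed background and unknown sex, in which EGFP is expressed from Crym regulatory DNA. The structure sampled, per the labels, was the renal vesicle, an epithelial ball from which the nephron grows, and no second genotype, treatment or time is given. Each cell was captured on a Fluidigm C1 chip and sequenced as its own library. Because the cells share 1 pool, they are not replicates: SDs and ranges below are spreads over cells, no p-value was computed, and every difference is a description of these cells. Levels are RPKM, reads per kilobase of gene and 1 M mapped reads, which scales for gene length and read number. It does not scale for other differences between genes, so comparisons between genes are approximate. Detection means RPKM 1 or more in that cell. By that measure Ccnd1, Ccnd2 and Cdk4, 3 of the 9 genes, were detected in at least 25 nephron cells, as were 30.1% of all genes.

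In G1 a cell decides whether to divide again. D cyclins rise when growth signals arrive and bind Cdk4 or Cdk6, and these complexes begin to inactivate the retinoblastoma protein, which frees E2F transcription factors. E2F then switches on the E cyclins and genes of DNA synthesis such as Rrm2, the small subunit of ribonucleotide reductase, while Top2a, a topoisomerase that untangles DNA, is most abundant later, in G2 and mitosis. Cdkn1a, a target of p53, and Cdkn1b hold cyclin-kinase complexes back. In the kidney, progenitors and renal vesicle cells proliferate rapidly, and podocytes leave the cell cycle as they mature, in step with the inhibitor Cdkn1c (p57).

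Cells were classed by marker genes. The 5 macrophage-like cells (numbers 1, 25, 35, 46 and 58) had 11 or more of 15 macrophage markers at RPKM 100 or more, against at most 1 in any other cell, and their summed marker level was 11099.6 to 21584 RPKM, against 0 to 211 in nephron cells. The 3 podocyte-like cells (2, 10 and 34) had at least 7 of 12 podocyte markers at RPKM 20 or more, against at most 4 elsewhere, with Wt1, a transcription factor of the podocyte lineage, at 865 to 1382 RPKM. Podxl, which encodes a podocyte surface protein, was at 51.3, 66.5 and 16.6 RPKM in cells 2, 10 and 34. The podocyte-like rule used here was written after the values were seen, because an earlier rule, which asked for low Pax8 and 3 podocyte markers, took cells 13 and 53. In these 2 cells the podocyte genes Nphs1 and Podxl were both listed at 0, whereas the fibroblast receptor gene Pdgfra was at 237 and 365 RPKM. They are called Pdgfra cells and given no cell type. The 50 nephron cells had the renal transcription factor Pax8 at RPKM 5 or more. The lowest of them was at 10.7 and the highest cell outside was at 1.99. The podocyte-like cells also passed the Pax8 threshold, which leaves 47 other nephron cells.

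Depth, estimated from the RPKM step of 1 read, had a median of 1.10 M reads in macrophage-like cells, 1.44 M in podocyte-like cells and 1.49 M in nephron cells. Its range was 0.762 to 1.38 M reads in macrophage-like cells, 0.787 to 1.57 M in podocyte-like cells and 0.472 to 2.28 M in nephron cells. Median genes detected per cell were 3489, 3815 and 4365.5 in the same order. Median gene number was lower in both of the first classes and median depth in the macrophage-like cells, and their part in the differences below was not tested.

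Promoter sequences are shown for the kinase pair and for Cdkn1a, because Cdk4 and Cdk6 do the same biochemical work at very different levels in these cells, and because Cdkn1a was high in 1 cell of 57. The windows are the 250 bases before the start site, from a set of RefSeq promoters on build GRCm38.p6. In the set used here 6 of the 9 members have an entry. Ccnd1, Ccnd2 and Ccne2 are missing from this set, which says nothing about RefSeq as a whole. Capitals mark CACGTG, the E-box bound by Myc and related factors, in Cdk4 and Cdk6, and the outer CATG cores of CATGNNNNNNCATG, the spacing of a p53 site, in Cdkn1a.
Cdk4, chr10:127063285-127063534, plus strand: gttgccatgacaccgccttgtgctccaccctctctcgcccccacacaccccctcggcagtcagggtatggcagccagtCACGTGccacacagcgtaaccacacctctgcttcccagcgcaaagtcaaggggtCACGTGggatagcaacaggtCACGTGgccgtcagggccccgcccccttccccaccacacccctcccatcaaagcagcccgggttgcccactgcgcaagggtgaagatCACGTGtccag
Cdk6, chr5:3343643-3343892, plus strand: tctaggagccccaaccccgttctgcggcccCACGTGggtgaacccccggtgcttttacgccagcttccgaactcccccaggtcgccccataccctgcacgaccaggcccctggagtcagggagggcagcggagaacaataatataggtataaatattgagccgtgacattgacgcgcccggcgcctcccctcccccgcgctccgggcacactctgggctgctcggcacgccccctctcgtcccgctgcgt
Cdkn1a, first of 2 start sites, chr17:29090729-29090978, plus strand: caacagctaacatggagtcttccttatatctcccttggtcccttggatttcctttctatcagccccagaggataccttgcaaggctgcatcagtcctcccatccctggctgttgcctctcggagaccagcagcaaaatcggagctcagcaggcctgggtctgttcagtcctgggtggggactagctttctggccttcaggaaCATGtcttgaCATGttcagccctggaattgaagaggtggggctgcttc

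The Cdk4 window holds 4 copies of CACGTG and the Cdk6 window 1. On both strands, 6.02% of 32851 promoters of the same length hold at least 1 copy and 20 of them hold 3 or more. The pair of CATG cores in the first Cdkn1a window occurs in 0.490% of promoters and is not in the second Cdkn1a window. None of TTTCCCGC, TTTCGCGC, TTTGCCGC or TTTGGCGC, exact forms of an E2F site, lies in the windows of the 6 members with an entry, and 1.86% of all promoters hold one. TTTGAA, the core of the element of late cell cycle genes, was found in none of these members' windows and at 2 positions in that of Top2a, against 16.0% of all promoters. These are matches of letters and describe no binding.

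Ccnd1 was the most abundant D cyclin in most nephron cells. Its transcripts (chromosome 7, 152115836 to 152125830, build mm9) were at 1.62, 8.25, 13.7, 24.9 and 75.8 RPKM in the macrophage-like cells. In the podocyte-like cells they were at 2.10, 13.4 and 39.4 RPKM, and in the Pdgfra cells at 43.6 and 129.7. In nephron cells Ccnd1 ranged from 0.12 to 1107 RPKM with a median of 454. The groups overlapped, but 42 of the 50 nephron cells lay above the highest macrophage-like cell, and the same number of the 47 other nephron cells lay above the highest podocyte-like cell.

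The mean of Ccnd1 was 24.9 ± 29.8 RPKM in macrophage-like cells and 479 ± 315 in nephron cells (SD, n = 5 and 50 cells), a log2 ratio of -4.21 on the scale of mean RPKM + 1 that is used for every ratio here. In podocyte-like cells it was 18.3 ± 19.1, against 509 ± 302 in the other nephron cells (SD, n = 3 and 47 cells), a log2 ratio of -4.72. The difference in mean was larger than the spread over cells of either group in the first comparison and in the second. With Ward clusters as classes, where the cluster of the macrophage-like cells also held 9 other cells, the first ratio was -2.04. The Pdgfra cells averaged 86.7 RPKM, a log2 ratio of -2.45 to nephron cells.

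**Figure D1:**
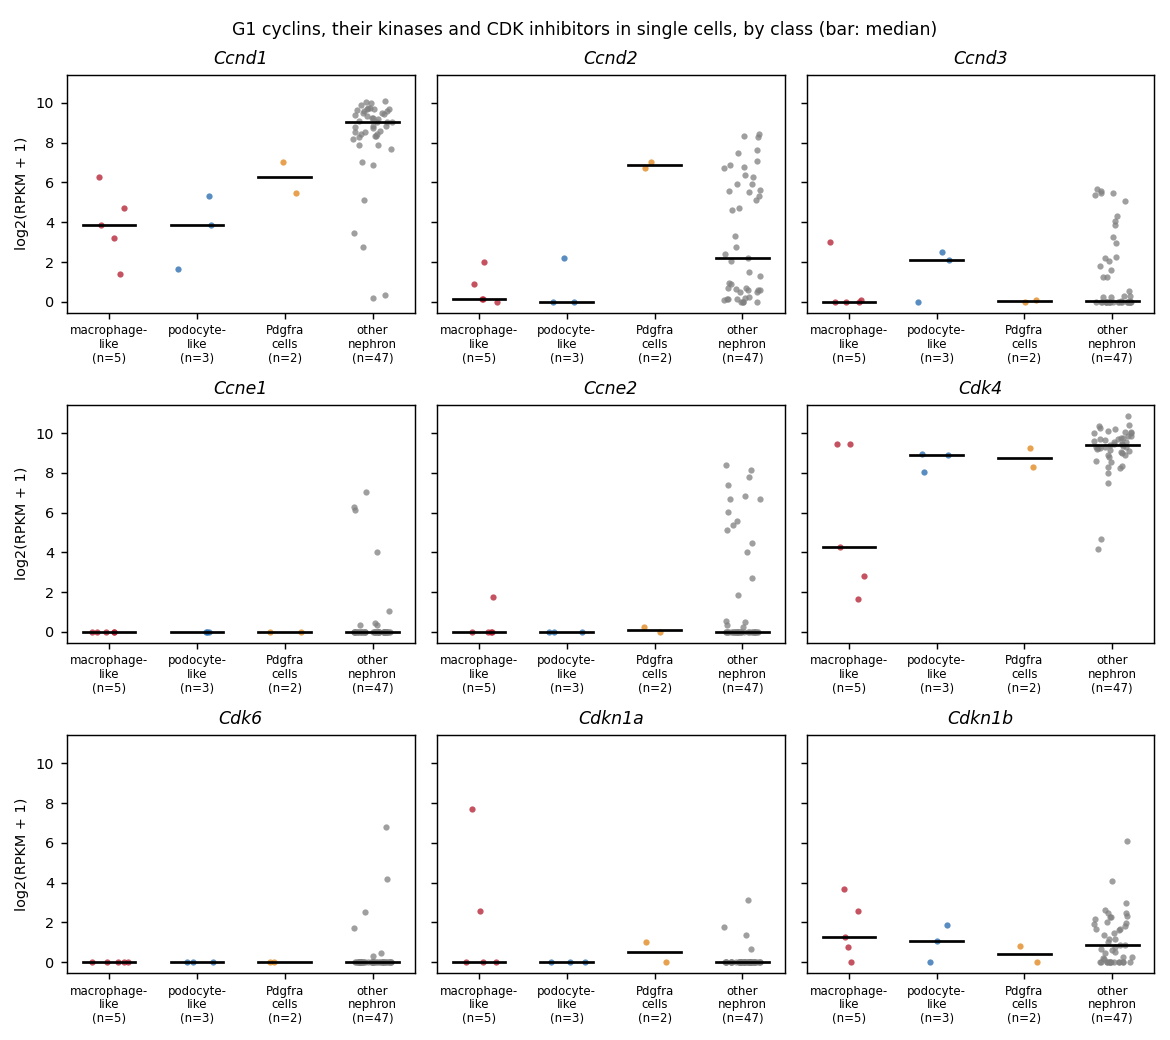
Level of each of the 9 genes, as log2(RPKM + 1) on the y axis, in the 5 macrophage-like, 3 podocyte-like, 2 Pdgfra and 47 other nephron cells; points are cells and bars are medians. Most nephron cells stand far above the macrophage-like and podocyte-like cells for Ccnd1, Ccnd2 is high in both Pdgfra cells, and Cdkn1a is high in 1 macrophage-like cell.

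Ccnd2, the D cyclin with the second highest mean in nephron cells, was spread unevenly over these cells. In macrophage-like cells Ccnd2 (chromosome 6, 127075727 to 127101066) was at 0, 0.12, 0.12, 0.86 and 2.95 RPKM. In podocyte-like cells it was at 0, 0 and 3.63, and in the Pdgfra cells at 106 and 130. In nephron cells it ranged from 0 to 346 with a median of 3.40 and a mean of 48.1 ± 86.1 (SD, n = 50 cells). No nephron cell lay between 10 and 20 RPKM: 22 were below 1, 8 were between 1.46 and 8.74, and 20 were at 23.5 or more. These limits were not set in advance, and a division into separate sets was not tested.

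The Pdgfra cells therefore lay among the higher nephron cells for Ccnd2, with 42 of 50 nephron cells below both of them, and the log2 ratio of the means was 1.28, or 3.81 with the log2 values of the cells averaged. Ccnd2 exceeded Ccnd1 in both Pdgfra cells, though by little in cell 53, at 130.1 against 129.7 RPKM. In macrophage-like cells the mean of 0.81 ± 1.24 RPKM gave a log2 ratio of -4.76 to nephron cells, which was -2.44 with averaged log2 values, -2.43 with a pseudocount of 10 and -1.15 with the Ward clusters. In podocyte-like cells it was 1.21 ± 2.10, against 51.1 ± 88.0 in the other nephron cells (SD, n = 3 and 47 cells), a log2 ratio of -4.56, or -2.49 with averaged log2 values. Because 22 nephron cells were themselves below 1 RPKM, the classes overlapped.

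Ccnd3 (chromosome 17, 47642000 to 47736637) was the least abundant D cyclin by its mean in nephron cells. Among macrophage-like cells it was detected in cell 1 alone (6.90 RPKM), and among podocyte-like cells in cells 2 and 34 (3.26 and 4.73). It was detected in 20 of 50 nephron cells (40.0%, exact Clopper-Pearson 95% interval 26.4 to 54.8) with a highest value of 49.4 and a mean of 6.95 ± 14.1 (SD, n = 50 cells). Its log2 ratio was -1.73 for macrophage-like over nephron cells and -1.17 for podocyte-like over other nephron cells, and the second had the opposite sign, 0.15, when the log2 values of the cells were averaged instead.

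Every one of the 57 cells had at least 1 detected D cyclin. Of the nephron cells 13 had 1, 28 had 2 and 9 had 3. Ccnd1 was the most abundant D cyclin in all 5 macrophage-like cells, in all 3 podocyte-like cells and in 46 of 50 nephron cells. It made up a median of 93.1% of the summed D cyclin RPKM of a nephron cell. Ccnd2 led in the other 4 nephron cells, numbers 7, 28, 29 and 37, and Ccnd3 led in none.

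**Figure D2:**
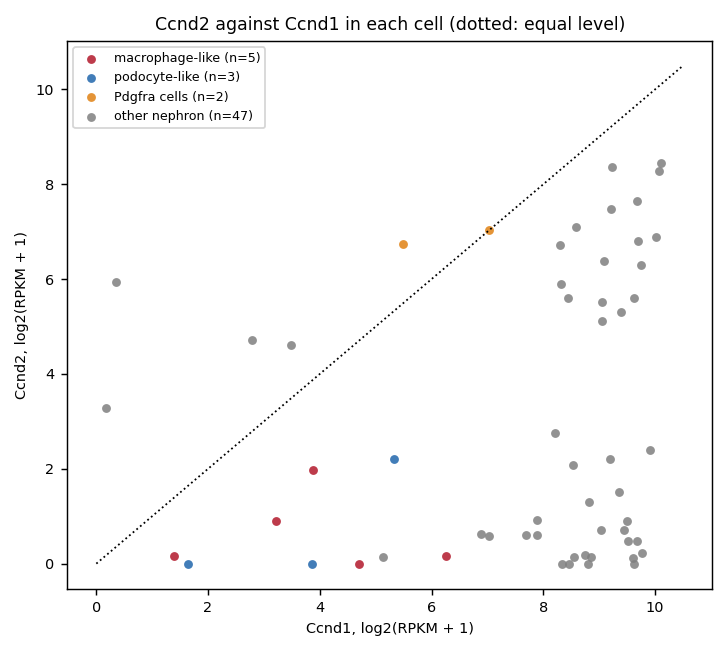
Ccnd2 (y axis) against Ccnd1 (x axis), both as log2(RPKM + 1), in each of the 57 cells, coloured by class; the dotted line marks equal levels. The 4 nephron cells and both Pdgfra cells on or above the line had more Ccnd2 than Ccnd1, and Ccnd2 of the cells at the right spans low and high values.

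The 4 cells led by Ccnd2 belong to a small group of nephron cells with little Ccnd1. Taking RPKM 100 as a limit, chosen after the values were seen, 8 nephron cells lay below it, the highest at 39.4, and 42 lay above it, the lowest at 117. The 8 cells were the 3 podocyte-like cells, the 4 cells just named and cell 39. Of these, 7 had both Top2a and Rrm2 below RPKM 10, and cell 39, with 33.9 RPKM of Ccnd1, had Top2a at 274 and Rrm2 at 85.5.

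In these 8 cells the medians were 1.56 RPKM for Top2a and 1.60 for Rrm2, against 132 and 293 in the 42 cells with more Ccnd1. Both E cyclins, Cdk6 and Cdkn1a were listed at 0 in all 8. Most of the 42 cells also lacked them: Ccne1 was detected in 5, Ccne2 in 15, Cdk6 in 4 and Cdkn1a in 3. Cdk4 was not low in the 8 cells, at 181 to 924 RPKM. Estimated depth of the 8 cells was 0.787 to 1.83 M reads, within the range of the others. Their genes detected ran from 3053 to 4581, against a median of 4365.5 over all nephron cells. Of the 8 cells, only cells 28 and 39 were above that median, and the part of gene number in low Ccnd1 was not tested. Low Ccnd1 and low Top2a and Rrm2 thus occurred together in 7 cells, but 4 further cells had Top2a and Rrm2 below 20 with Ccnd1 above 100: in all, 11 nephron cells were low for both. The 2 cells with the least Ccnd1, 7 and 37, had 0.12 and 0.27 RPKM.

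Cdk4, which encodes a kinase partner of the D cyclins, was detected in every cell. Its smallest step, taken from its lowest value, was 2.02 RPKM at median depth, above the detection limit of RPKM 1. The lowest Cdk4 values, in macrophage-like cells, may thus rest on few reads. In macrophage-like cells Cdk4 (chromosome 10, 126500659 to 126504338) was at 2.14, 5.98, 18.2, 699 and 705 RPKM, so that 3 cells lay at or below the lowest nephron cells and 2 near the nephron median. In podocyte-like cells it was at 263, 482 and 486, and in the Pdgfra cells at 313 and 598. In nephron cells Cdk4 ranged from 17.2 to 1886 with a median of 640 and a mean of 694 ± 356 (SD, n = 50 cells). Its lowest nephron values, 17.2 in cell 30 and 24.8 in cell 50, stood apart from the next, 181 in cell 29, and cell 30 was the shallowest of all libraries at 0.472 M reads.

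The macrophage-like mean of 286 ± 380 RPKM for Cdk4 gave a log2 ratio of -1.27 to nephron cells, and the ratio came to -0.97, -0.96 or -0.96 without cell 25, 46 or 58, to -1.93 or -1.92 without cell 1 or 35, and to -3.62 with averaged log2 values. The difference in mean was close to the SDs of both classes, which overlapped. In podocyte-like cells the mean was 410 ± 127, against 712 ± 359 in the other nephron cells (SD, n = 3 and 47 cells), a log2 ratio of -0.79, within 2-fold and less than the spread of the nephron cells. Cdk4 exceeded Ccnd1 in all 3 podocyte-like cells and in 37 of 50 nephron cells. The interquartile ranges of both genes overlapped in nephron cells, at 482 to 873 RPKM for Cdk4 and 251 to 729 for Ccnd1.

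Cdk6 (chromosome 5, 3343893 to 3522225), the other partner, was scarce. It was listed at 0 in all macrophage-like, podocyte-like and Pdgfra cells, and was detected in 4 of 50 nephron cells (8.00%, interval 2.22 to 19.2), at 112 RPKM in cell 49, 16.9 in cell 43, 4.76 in cell 38 and 2.32 in cell 3. Cdk4 was above Cdk6 in every one of the 57 cells. All 4 cells with Cdk6 had Rrm2 at 349 RPKM or more, and cell 49, which had the most Cdk6, also had the highest Cdk4, Ccnd3 and Rrm2 of the nephron cells (1886, 49.4 and 1903 RPKM).

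The E cyclins activate Cdk2 at the start of DNA synthesis, and both were found in a minority of nephron cells. Ccne1 (chromosome 7, 38883003 to 38892509) was listed at 0 in all macrophage-like, podocyte-like and Pdgfra cells. The 0 of 5 macrophage-like cells allow a share of up to 60.0% if up to 3 cells are allowed for a count of 0, the rule used for zeros here. In nephron cells it was detected in 5 of 50 (10.0%, interval 3.33 to 21.8), at 129 RPKM in cell 38, 77.3 in cell 21, 70.0 in cell 16, 15.4 in cell 41 and 1.09 in cell 6.

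Ccne2 (chromosome 4, 11118501 to 11131926) was detected in macrophage-like cell 58 at 2.44 RPKM and in none of the podocyte-like or Pdgfra cells. In nephron cells it was detected in 15 of 50 (30.0%, interval 17.9 to 44.6), and 12 of these were at 20 RPKM or more, up to 335 in cell 24 and 281 in cell 49. The mean was 0.49 ± 1.09 RPKM in macrophage-like cells and 31.1 ± 73.5 in nephron cells (SD, n = 5 and 50 cells), a difference smaller than the SD of the nephron cells. In all, 18 nephron cells had an E cyclin, and cells 38 and 41 had both.

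The inhibitors were low. Cdkn1a (chromosome 17, 29227931 to 29237667) was at 210 RPKM in macrophage-like cell 25 and at 4.99 in cell 58, and was listed at 0 in the other 3 macrophage-like cells and in the 3 podocyte-like cells. In nephron cells it was detected in 3 of 50 (6.00%, interval 1.25 to 16.5), at 7.80, 2.47 and 1.60 RPKM in cells 5, 21 and 40. The log2 ratio of the macrophage-like to the nephron mean, 5.14, rested on cell 25 and was 0.85 without it, and 1.92 with averaged log2 values. Cell 25 also had the highest Rrm2 of the macrophage-like cells, 368 RPKM.

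Cdkn1b (chromosome 6, 134870419 to 134875543) was widespread and faint. It was at 0, 0.69, 1.45, 4.94 and 12.0 RPKM in macrophage-like cells and at 0, 1.11 and 2.60 in podocyte-like cells. In nephron cells it was detected in 24 of 50 with a median of 0.82, and cell 30 alone was above 20, at 66.3. The mean was 3.82 ± 4.97 RPKM in macrophage-like cells and 3.03 ± 9.51 in nephron cells (SD, n = 5 and 50 cells), a log2 ratio of 0.26, well within the spread, and of -0.54 without cell 46. In the Pdgfra cells Ccnd3, Cdkn1a and Cdkn1b were all below 1 RPKM. Cell 30 is also the shallowest library and has the lowest Cdk4 of the nephron cells.

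**Figure D3:**
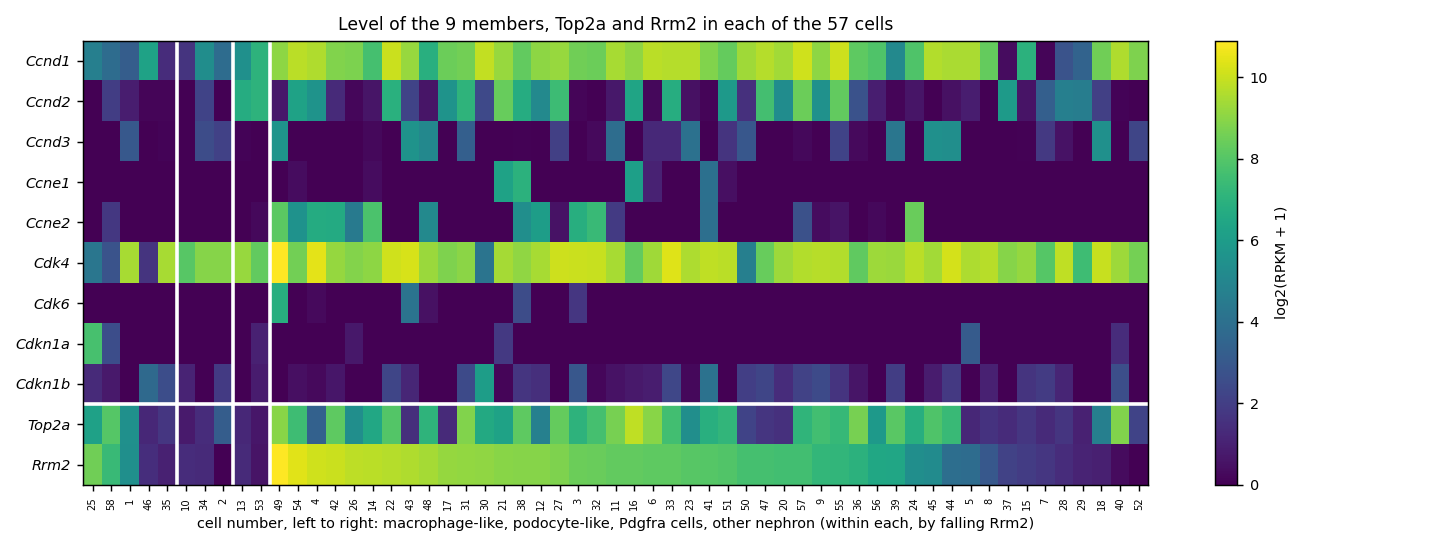
Level of the 9 genes (upper rows) and of Top2a and Rrm2 (lower rows) in each of the 57 cells, coloured by log2(RPKM + 1); white lines separate macrophage-like, podocyte-like, Pdgfra and other nephron cells, and cells run by falling Rrm2 within each. Ccnd1 and Cdk4 are high in most nephron cells, and most cells with an E cyclin or Cdk6 appear towards the left of the nephron block, where Rrm2 is high.

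Counted together, 7 of the 9 genes were at least 2-fold lower in macrophage-like than in nephron cells, as were 56.1% of the 11084 genes whose mean over the cells reached RPKM 1. One, Cdkn1a, was at least 2-fold higher, as were 17.3% of all genes, and Cdkn1b was within 2-fold. In podocyte-like cells 6 of 9 were at least 2-fold lower than in the other nephron cells, against 55.7% of all genes, and none was higher, against 16.8%. In the Pdgfra cells 6 of 9 were lower, against 65.7%, and Ccnd2 was higher, against 14.3%. The lower counts include Ccne1 and Cdk6, listed at 0 in all 3 classes, and Ccne2, listed at 0 in the podocyte-like cells, for which no fold is given. The counts of lower genes are near the background, most clearly in the Pdgfra cells, and so are no result about these genes as a group. The median log2 ratio of the 9 genes was -1.90, -1.96 and -1.90 in macrophage-like, podocyte-like and Pdgfra cells, against -1.31, -1.33 and -1.87 for all genes.

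The wider G1 pathway was described with a list of 36 genes, 33 of which had values. In macrophage-like cells 21 were at least 2-fold lower and 5 higher than in nephron cells, against 56.1% and 17.3% of all genes, with a median log2 ratio of -2.01 against -1.31. The farthest were Cdkn1c, at 0.18 ± 0.25 RPKM against 62.9 ± 74.6 in nephron cells, and Rb1, the retinoblastoma gene, at 51.2 ± 80.1 against 3.15 ± 9.59 (SD, n = 5 and 50 cells). The Rb1 mean came from cells 1 and 25, at 183 and 73.2 RPKM, with 0 listed in the other 3.

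In podocyte-like cells 23 of the 33 genes were lower and 4 were higher than in the other nephron cells, against 55.7% and 16.8% of all genes, with a median of -2.41 against -1.33. Tfdp1, the partner subunit of E2F, was lowest, at 0.32 ± 0.33 RPKM against 98.1 ± 121, and Cdc25a, a phosphatase that activates Cdk2, was highest, at 83.2 ± 83.6 against 12.1 ± 27.4 (SD, n = 3 and 47 cells). Cdc25a was at 0.44 RPKM in cell 10, so cells 2 and 34 carry that mean. Cdkn1c, at 52.1, 316 and 300 RPKM in cells 2, 10 and 34, averaged 223 ± 148, against 52.7 ± 56.6 in the other nephron cells, a log2 ratio of 2.06. It is one of the podocyte markers listed for the classes, though left out of the rule that chose these cells. Cdkn1c was the CDK inhibitor with the highest mean in nephron cells among those measured here, detected in 42 of 50 (84.0%, interval 70.9 to 92.8).

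A second list held 26 genes of S phase and G2/M. In macrophage-like cells 15 were at least 2-fold lower and 2 were higher than in nephron cells, against 56.1% and 17.3% of all genes, with a median log2 ratio of -1.73 against -1.31. In podocyte-like cells 23 were lower and none was higher, against 55.7% and 16.8% of all genes, with a median of -4.86 against -1.33. In the Pdgfra cells all 26 were lower, against 65.7% of all genes, with a median of -5.27 against -1.87. Top2a was at 43.0, 73.6, 2.28, 1.30 and 259.5 RPKM in macrophage-like cells 1, 25, 35, 46 and 58, at 8.18, 0.75 and 1.60 in podocyte-like cells 2, 10 and 34, and at 1.35 and 0.60 in Pdgfra cells 13 and 53. Rrm2 was at 1.03 to 368 RPKM in macrophage-like cells, at 0 to 1.59 in podocyte-like cells, and at 0 to 1903 with a median of 225 in nephron cells. Macrophage-like cells 1, 25 and 58 thus had both genes above 20 RPKM, with Ccnd1 at 8.25, 24.9 and 13.7.

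Within the 50 nephron cells, Ccne2 was the member that went with Rrm2. Spearman's rho, given as a description over cells that share a pool and differ in depth, was 0.56 between Ccne2 and Rrm2 and 0.31 between Ccne2 and Top2a. The 15 cells with Ccne2 had a median Rrm2 of 489 RPKM and a lowest value of 40.3, against a median of 125 and a lowest value of 0 in the 35 cells without it. All 5 cells with Ccne1 had Rrm2 between 262 and 502 RPKM and Top2a at 75.7 or more. Of the 14 nephron cells with Rrm2 below 20, none had an E cyclin, which allows a share of up to 21.4% by the rule of 3 cells, while 18 of the 36 cells with more Rrm2 had one.

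The split by Top2a was less sharp for Ccne2: cell 4, with Ccne2 at 103 RPKM and Rrm2 at 1114, had Top2a at 9.43. High Rrm2 did not always come with Ccne2 either, since cells 22 and 43 had 822 and 764 RPKM of Rrm2 without it. Cell 24, which had the most Ccne2, had an Rrm2 of 40.3.

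**Figure D4:**
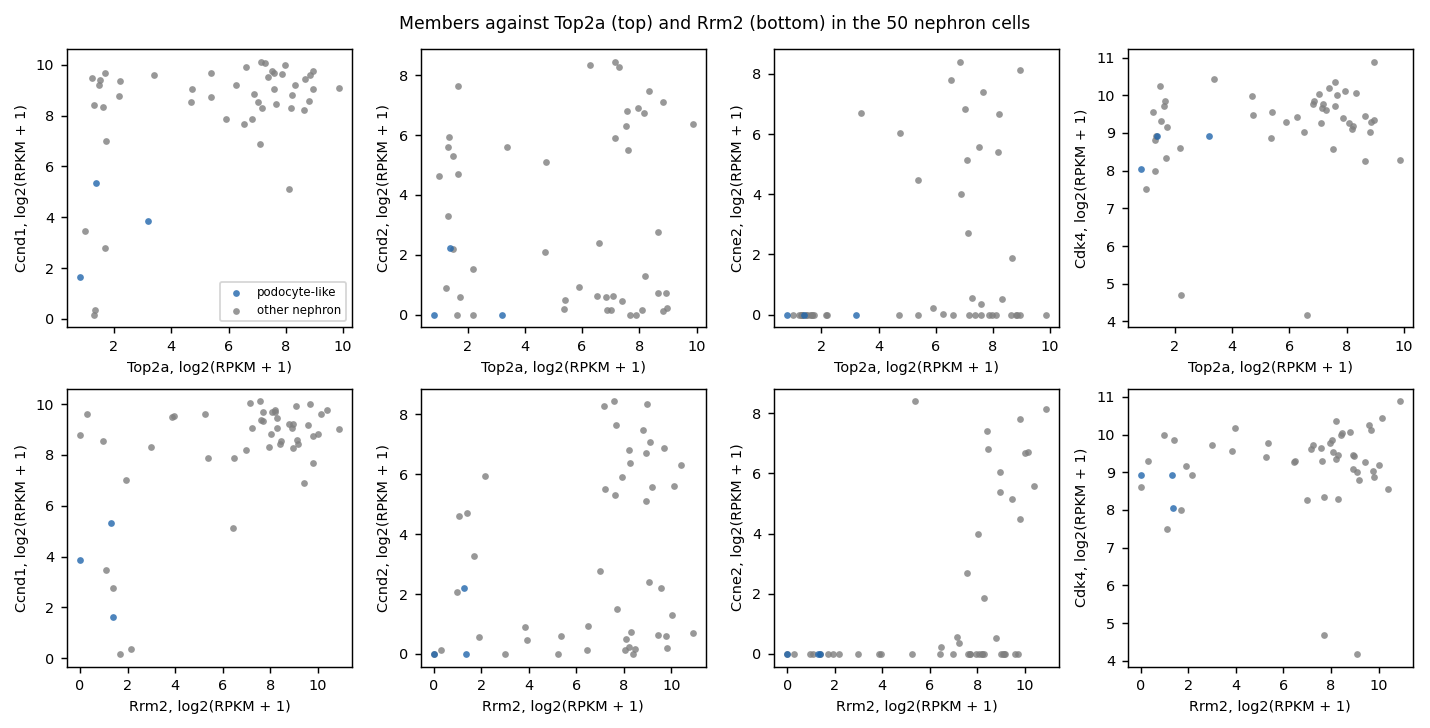
Ccnd1, Ccnd2, Ccne2 and Cdk4 (y axes) against Top2a (upper row) and Rrm2 (lower row) in the 50 nephron cells, all as log2(RPKM + 1); podocyte-like cells are in blue. Cells with Ccne2 lie at the right of the Rrm2 panel, and the cells with the least Ccnd1 lie mostly at the left of both Ccnd1 panels.

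Of the 6 members detected in at least 10 nephron cells, 3 reached a rho of 0.3 with Rrm2, as did 7.82% of 7736 genes: Ccne2, Ccnd1 (0.37) and Ccnd2 (0.32). With Top2a 2 of the 6 did, Ccnd1 (0.37) and Ccne2, against 8.04% of genes. Those of Ccnd1 and Ccnd2 moved with other measures. Both correlated with the number of genes detected per cell (0.35 and 0.34), and with that number regressed out the rho with Rrm2 was 0.28 for Ccnd1 and 0.23 for Ccnd2, against 0.51 for Ccne2. Without the 3 podocyte-like cells the rho with Rrm2 was 0.26, 0.25 and 0.53 for the same genes, and no member reached 0.3 with Top2a. With gene number regressed out the rho with Top2a was 0.26 for Ccnd1 and 0.21 for Ccne2, and Ccnd3 was the member past 0.3, at 0.34. Pearson's r of the log2 values with Rrm2 was 0.60 for Ccnd1. Among these 6 members, the relation of Ccne2 with Rrm2 was the one that stayed above 0.3 in each of these settings.

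Cdk4 had rho of 0.25 with Top2a and 0.19 with Rrm2, and its median was 703 RPKM in the 33 cells with Top2a at 20 or more and 482 in the other 17, with overlapping ranges. Cdkn1b had 0.21 and -0.03, and Ccnd3 0.22 and -0.10. The rho of 0.43 between Cdk6 and Rrm2 rests on 4 cells. Among the members themselves the highest rho were 0.40 between Ccne2 and Cdk6, which again rests on few cells, and 0.33 between Ccnd1 and Cdkn1b and between Cdk4 and Cdk6.

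**Figure D5:**
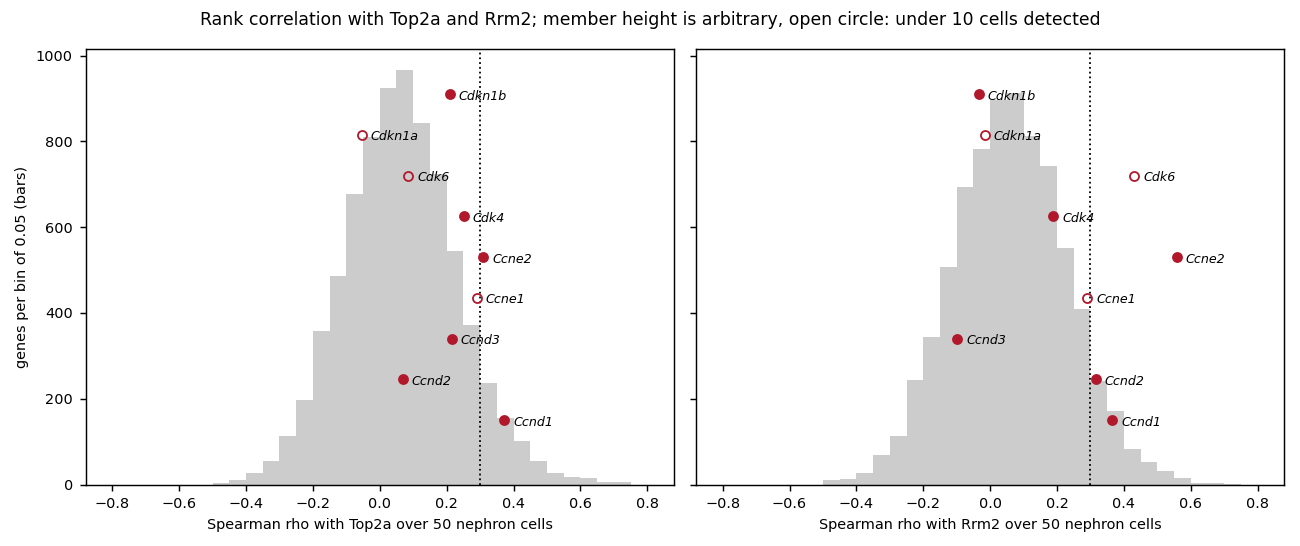
Spearman's rho with Top2a (left) and Rrm2 (right) over the 50 nephron cells on the x axis; grey bars count the other genes tested per bin of rho, and circles mark the 9 members at arbitrary heights, open where a member was detected in under 10 cells. Ccne2 lies at 0.56 for Rrm2, where Cdk6, Ccnd1 and Ccnd2 are also past the dotted line at 0.3, as are Ccnd1 and Ccne2 for Top2a; the remaining members lie to its left.

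In the lists, 7 of 29 G1 pathway genes reached 0.3 with Top2a and 9 of 29 with Rrm2, against 8.04% and 7.82% of all genes. Cks1b, a small subunit of cyclin-kinase complexes, was highest with Top2a (0.68), and E2f2 was highest with Rrm2 (0.69). Of the 26 S and G2/M genes 14 reached 0.3 with Top2a and 18 with Rrm2, led by the mitotic kinase gene Cdk1 (0.73) and the thymidylate synthase gene Tyms (0.67). Rrm2 and Top2a correlated with each other at 0.39.

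Over the same 50 cells, the 6 genes ranked most like Ccnd1 were Cdca8 (rho 0.61), Hmga1 (0.59), Hmgb2 (0.58), Ccnb1 (0.57), Nusap1 (0.56) and Srsf7 (0.56). Cdca8 and Nusap1 encode proteins of the mitotic spindle and Ccnb1 encodes the mitotic cyclin B1, while Hmga1 and Hmgb2 encode chromatin proteins and Srsf7 a splicing factor. The Notch ligand gene Jag1, looked at after the ranking, was close behind at 0.56. It was the highest of the nephron genes looked at for Ccnd1. The others were Lhx1 (0.44), Pou3f3 (0.21), Sox9 (0.13), Tmem100 (0.04) and Wt1 (-0.17). The podocyte-like cells were low for both Jag1 and Ccnd1, and their part in this rho was not tested. The genes most like Ccne2 were the DNA ligase gene Lig1 (0.66), the replication helicase gene Mcm2 (0.62) and Mtcp1 (0.61).

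For Ccnd2 they were Dopey2 (0.62), Plk2 (0.54) and Gucy1a3 (0.54), and for Cdk4 Palm (0.59), Nhp2 (0.54) and Cnbp (0.54). Those of Ccnd3 were C330018D20Rik (0.47), Rab2a (0.46) and Gusb (0.44), and those of Cdkn1b were Nsg1 (0.57), Rufy3 (0.56) and Cks2 (0.55). Dopey2, Plk2, C330018D20Rik, Gusb and Nsg1 were each detected in 12 cells or fewer, so few cells carry those values.

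The authors' deposited table of 787 genes, which sets a proximal against a distal class of vesicle cells, holds Ccnd2 and none of the other 8 members. In the authors' deposited table Ccnd2 has a signed fold of 8.81 towards the proximal class, rank 96 of the 436 genes higher there. From the G1 pathway list the authors' deposited table holds Mycn (17.6), Cdkn1c (4.61) and Cdk7 (4.44) as higher in the proximal class, and Myc (-10.3) as higher in the distal class. In the larger table, over 50 nephron cells, Ccnd2 had rho of 0.40 with Tmem100 and -0.30 with Sox9. This pair of genes was picked after the values were seen. Other nephron genes looked at gave weaker values: -0.15 with Jag1, -0.06 with Lhx1 and -0.24 with Pou3f3. With Wt1 the rho of Ccnd2 was 0.16, and 0.30 without the 3 podocyte-like cells.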

How the data were processed

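The authors deposited a table of RPKM values, per the file headers, for 12087 genes in 57 cells. It also holds a count of cells above RPKM 3 for each gene, per the file headers, which matched the values for every gene and was at least 2. A second deposited table gives RPKM and the authors' signed fold, treated as a score, for 787 genes in 28 cells. Values of Ccnd2 differed between the tables (median ratio 1.42), so each was used alone. TopHat 1.4.1, DESeq and build mm9 are named, with no role, in the submitters' processing notes. The libraries keep no strand, so overlapping genes share reads. The files hold no read counts; depth was estimated from RPKM steps of 1018 genes with 1 annotated transcript. All columns come from 1 lane.

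Classes, means, SDs, exact Clopper-Pearson 95% intervals (sampling of cells only), log2 ratios with a pseudocount of 1, and Spearman's rho were computed with Python 3.11.15, numpy 2.4.6, pandas 2.3.3 and scipy 1.17.1, and checked on simulated data. Ratios cover genes with mean RPKM of 1 or more, and rho covers genes detected in at least 10 nephron cells. Named genes are the members, Top2a, Rrm2, the farthest genes of 2 lists, and the genes of highest rho. Alternatives covered thresholds, pseudocount, filter, scaling, classes and each cell left out. The members and lists were chosen with earlier results of these data known. Clusters used Ward's method. One podocyte marker counted in the classes is not reported here.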

Additional observations from a re-analysis of the deposited data

Results flagged for a closer look

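In the group of 5 macrophage-like cells, 9 genes were examined for a cell far from the other 4. They include Top2a and so are not the same 9 as the members. Of them 5 were picked out, where chance picks about 1 group in 20 of normally distributed values. These values hold many zeros, so the number picked out is not set against that rate. Cdkn1a was at 210 RPKM in cell 25, against 4.99 in the next cell. Top2a was at 259.5 in cell 58, against 73.6 in the next. Ccnd2 (2.95) and Ccne2 (2.44) were also highest in cell 58, and Ccnd3 (6.90) in cell 1, all at low levels, and Ccnd2 passed the limit only narrowly.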

How the results depend on the processing

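Of 44 recomputed counts of members, 33 stayed within 1.5 times the reported one and 11 moved. Of 321 recomputed single values 281 stayed on their side of 2-fold or of rho 0.3, whatever their size, and 39 crossed it. One value past 2-fold, that of Ccnd3 in podocyte-like cells, changed sign (0.15 with averaged log2 values), and values near 0 also changed sign, among them Cdkn1a in the Pdgfra cells (0.26, and -0.32 without cell 53) and the rho of Ccnd2 with Top2a (0.07, and -0.10 with gene number regressed out). Sizes moved too, as for Ccne2 in macrophage-like cells (-4.43, and -1.42 with averaged log2 values). Members detected in at least 25 nephron cells were 3 of 9, against 30.1% of all genes, and 5 with detection above 0. Members 2-fold apart between macrophage-like and nephron cells, 8 in the report, were 5 with a pseudocount of 10 and 5 with averaged log2 values, and 6 to 8 with single cells left out. For podocyte-like cells, 6 in the report, they were 3 and 3, and 5 to 7. For the Pdgfra cells, 7 in the report, they were 3 and 4, and 7 to 8. Members at rho 0.3 with Top2a, 2 in the report, were 1 with gene number regressed out (Ccnd3, neither of the 2) and 0 without podocyte-like cells. With Rrm2, 3 in the report, they were 1 and 1. The podocyte-like rule, its alternatives, the setting without these cells and the setting with 3 clusters were added after seeing the data. A pseudocount of 10 and averaged log2 values both shrink ratios of genes seen in few cells. No paired analysis was possible because the cells form 1 group. Low values rest on few reads, and RPKM 1 is not the same limit in reads for every gene. The smallest step at median depth was 0.11 RPKM for Ccnd2 and 2.02 for Cdk4, so detection counts of different members have unlike limits. The 3 and 2 cells in a class limit every ratio for podocyte-like and Pdgfra cells.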
